A study of Mus musculus with 2 samples.

Results

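The nuclear genes of respiratory complex I were described in the mouse adrenal gland. The members are all genes whose symbol starts with Nduf and that have at least 1 transcript annotated as protein_coding, taken by symbol from the transcript annotation and joined to the gene tables. The rule found 46 genes of the 55536 annotated genes in those tables, and it used no measured value. The members were placed by textbook role as 7 core subunits, 29 accessory subunits, 8 assembly factors (Ndufaf1 to Ndufaf8) and 2 genes, Ndufa4 and Ndufa4l2, whose products do not belong to complex I.

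Total RNA was sequenced from adrenal tissue of female B6CASTF1/J mice, the first-generation hybrids of C57BL/6J and CAST/EiJ, at the age of 10 days. The series holds 1 group with 2 libraries, called replicate 1 and replicate 2, for which 300 ng of starting RNA was depleted of ribosomal RNA, spiked with ERCC standards and converted by a strand-keeping library protocol. The labels name no altered allele, no agent and no second condition. The labels give the tissue samples different female numbers but repeat a single female number, cDNA number and donor entry for both libraries, so it cannot be told whether n = 2 stands for separate animals. SDs therefore measure only the spread between these libraries, and p-values measure counting error only.

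Complex I, NADH:ubiquinone oxidoreductase, is the largest enzyme of the respiratory chain. Its matrix arm takes electrons from NADH in the N module and passes them along iron-sulfur clusters to ubiquinone in the Q module, and its membrane arm pumps protons. The core subunits carry out catalysis and are shared with bacteria, the accessory subunits surround and stabilise them, and assembly factors join the modules and then leave. The membrane-arm core is encoded by mitochondrial DNA and the rest by nuclear genes. Steroid-producing cells of the adrenal cortex are rich in mitochondria, where the first and last steps of corticosteroid synthesis take place.

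The libraries held 35636846 and 33378436 expected counts, and each member had at least 239 counts in replicate 1 and 221 in replicate 2. Cortex markers were present in both libraries, with Hsd3b1 at 1456 and 1424 TPM (the abundance unit that corrects for transcript length and depth) and Cyp21a1 at 818 and 844 TPM, as were chromaffin markers, with Chga at 347 and 314 TPM and Chgb at 294 and 265 TPM. Markers of tissues that border the gland differed between the libraries. The 8 liver markers, led by Alb (2509 and 502 TPM) and Trf (1002 and 199.8 TPM), summed to 5647 TPM in replicate 1 and 1089 TPM in replicate 2. The 8 skeletal muscle markers, led by Acta1 (1194 and 328 TPM) and Mylpf (772 and 274 TPM), summed to 3255 and 1091 TPM. The 10 kidney markers, led by Slc34a1 (0.14 and 80.8 TPM) and Kap (0.20 and 70.2 TPM), summed to 1.17 and 235 TPM, and Slc22a6 was listed at 0 in replicate 1. The 6 brown fat markers, led by Ucp1 (978 and 1302 TPM) and Cox8b (981 and 1100 TPM), summed to 3158 and 3758 TPM, and the 7 red cell markers, led by Hba-a1 (1580 and 903 TPM) and Hbb-bs (1462 and 875 TPM), to 4613 and 2724 TPM. Levels of complex I genes are levels of this mixed tissue, in which fewer cells of a type and less RNA per cell cannot be told apart.

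All 46 members were detected in both libraries at 1 TPM or more, and 44 reached 10 TPM in both. The median member stood at 164.69 TPM over both libraries. The 36 subunits had a median of 182 TPM in replicate 1 and 185 TPM in replicate 2, against 10.2 and 9.81 TPM for the 12800 nuclear protein-coding genes detected in both. Of the 36 subunits, 35 were among the 1000 most abundant protein-coding genes by mean TPM. Their levels lay close together, with 27 subunits between 100 and 300 TPM, 6 above 300 and 3 below 100. Across the 36 subunits the log2 TPM of replicate 2 against replicate 1 had a Pearson r of 0.996 and a Spearman rho of 0.991, a description across genes that share the same libraries. The level was only loosely related to length, with an r of -0.19 and a rho of -0.11 between log2 TPM and log2 effective length.

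**Figure D1:**
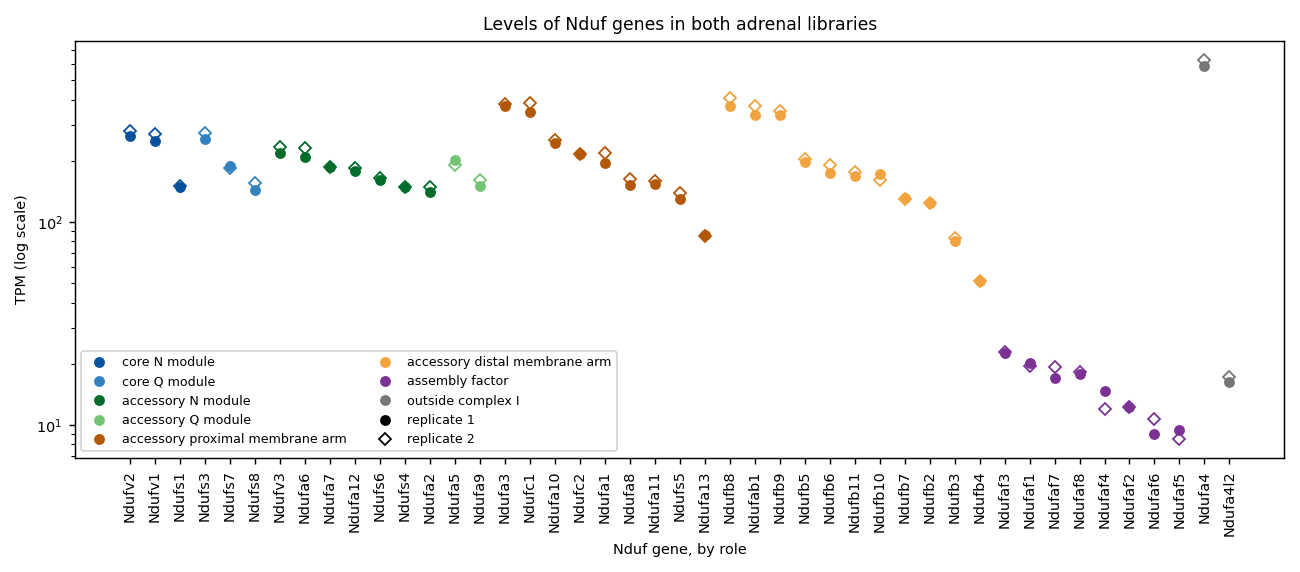
TPM (log scale) of the Nduf genes reported here, ordered by role and by mean level, with filled circles for replicate 1 and open diamonds for replicate 2. The subunits form 1 band that ends at Ndufb4 (51.0 TPM), the 8 assembly factors lie below it at 8.99 to 22.7 TPM, and Ndufa4 stands above it at 608 TPM in the gene table.

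The core subunits that receive electrons from NADH were all abundant. Ndufv1, which binds NADH and the flavin, stood at 251 TPM in replicate 1 and 271 TPM in replicate 2. Ndufv2, its iron-sulfur partner, stood at 264 and 280 TPM. Ndufs1, the largest subunit and the carrier of most of the N-module clusters, was lower, at 149 and 150.2 TPM. The gap between Ndufs1 and its module partners was larger than the difference between the libraries for each of these genes.

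Those core subunits of the Q module that are reported singly here spanned a similar range. Ndufs3, which binds no cluster itself, stood at 257 TPM in replicate 1 and 275 TPM in replicate 2. Ndufs7, which holds the terminal iron-sulfur cluster, stood at 189 and 184 TPM, and Ndufs8, which holds further clusters, at 144 and 156 TPM. The order Ndufs3, Ndufs7, Ndufs8 was the same in both libraries, and no range of these genes overlapped that of its neighbour. The core subunits of the matrix arm had a median of 251 TPM in replicate 1 and 271 TPM in replicate 2.

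The 7 accessory subunits of the N module spanned a narrow range, from 144 to 226 TPM by mean. Ndufv3, which sits beside Ndufv1 and Ndufv2, stood at 219 and 233 TPM, and Ndufa6, a LYR-motif protein that binds the mitochondrial acyl carrier protein, at 208 and 230.4 TPM. At the low end were Ndufs4, whose loss destabilises the N module and causes Leigh-like disease in mice and people, at 149 TPM in both libraries, and Ndufa2, a small protein with a thioredoxin fold, at 139.9 and 148 TPM. Ndufa7, Ndufa12 and the zinc-binding Ndufs6 lay between, at means of 186, 180.4 and 163 TPM. The ranges of the neighbours Ndufv3 and Ndufa6 overlapped, whereas that of Ndufs4 stayed above that of Ndufa2 by less than 1 TPM. Of the Q-module accessory subunits, Ndufa5 stood at 200.5 and 191 TPM and Ndufa9, which binds NADPH at the arm's bend, at 150.2 and 159.8 TPM, with no overlap between the pair.

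Accessory subunits of the membrane arm covered a wider range. In the proximal part, Ndufa3 stood at 373 and 379 TPM and Ndufc1 at 348 and 387 TPM, both small single-pass membrane proteins, and their values overlapped. The lowest were Ndufs5, an intermembrane-space protein, at 129.9 and 139 TPM and Ndufa13, also known as GRIM-19 and studied as a cell-death regulator, at 86.1 and 85.5 TPM. In between were Ndufa10, Ndufc2, the X-linked Ndufa1, Ndufa8 and Ndufa11, with means from 157 to 249 TPM. In the distal part, Ndufb8 stood at 371 and 405 TPM and Ndufab1 at 337 and 370.2 TPM. Ndufab1 is the mitochondrial acyl carrier protein, which also serves fatty acid and lipoic acid synthesis. Ndufb9, another LYR-motif subunit, followed at 335 and 352 TPM. Ndufb5, Ndufb6, Ndufb10, Ndufb2, Ndufb7 and the X-linked Ndufb11 lay between, at means from 124 to 201 TPM. The lowest were Ndufb3 at 80.2 and 82.8 TPM and Ndufb4 at 50.8 and 51.3 TPM, and both stayed under every other distal subunit in both libraries. The value of Ndufb4 differs between the quantifications, which divide reads differently with a copy of the gene and among its own transcripts, as described below with its sequence.

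The median of the 29 accessory subunits was 0.687 ± 0.0137 (SD, n = 2) of the core median within each library. The distal accessory subunits stood at 0.669 ± 0.0276, the proximal ones at 0.788 ± 0.0116, those of the N module at 0.692 ± 0.0200 and those of the Q module at 0.673 ± 0.0374 of the core median. These shares are ratios of medians over small groups, and their order depends on the quantification. In the other quantification the accessory median was highest in the N module, at 331 TPM, and lowest in the proximal part, at 298 TPM. The Q module stood at 312 TPM and the distal part at 311 TPM there. Taken as sums, the 11 distal accessory subunits exceeded the 7 core subunits by 1.34-fold.

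The 8 assembly factors were far less abundant than the subunits they assemble. Ndufaf3, which works with Ndufaf4 on the Q module, stood at 22.5 and 22.9 TPM, and Ndufaf1, part of the assembly complex for the proximal membrane arm, at 20.1 and 19.4 TPM. At the low end were Ndufaf6 at 8.99 and 10.7 TPM and Ndufaf5, which hydroxylates an arginine of Ndufs7, at 9.45 and 8.53 TPM. Ndufaf7, an arginine methyltransferase, Ndufaf8, the partner of Ndufaf5, Ndufaf4 and Ndufaf2, a paralog of Ndufa12, lay between, at means from 12.3 to 18.1 TPM. The lowest subunit, Ndufb4, was above the highest assembly factor, Ndufaf3, in both libraries, so the groups did not overlap. The median subunit was 11.8 ± 0.554 (SD, n = 2) times the median assembly factor. A further 12 complex I assembly factors without an Nduf name, among them Tmem70 (35.5 and 36.6 TPM) and Foxred1 (33.7 and 35.5 TPM), had a median of 19.4 and 20.2 TPM. The highest of these, Tmem70, was likewise below every subunit.

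The genes outside complex I stood far apart. Ndufa4, now assigned to complex IV, was the most abundant member in the gene table at 587 and 629 TPM, rank 31 among protein-coding genes. It lies on chromosome 6 from 11900292 to 11907497 in mm10 on the minus strand. Ndufa4l2, a paralog induced by hypoxia-inducible factor, stood at 16.3 and 17.2 TPM. In the gene table Ndufa4 was above every complex I subunit in both libraries, but in the other quantification Ndufb8 (878 and 917 TPM) was above Ndufa4 (789 and 834 TPM).

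The mitochondrially encoded partners of the nuclear subunits were higher again in the gene table. mt-Nd1 stood at 6262 TPM in replicate 1 and 6872 TPM in replicate 2, and mt-Nd4l at 4932 and 5857 TPM. mt-Nd4 stood at 3994 and 4775 TPM, mt-Nd2 at 3087 and 3721 TPM and mt-Nd5 at 3175 and 3519 TPM. mt-Nd3 stood at 2697 and 3154 TPM, and mt-Nd6, the single subunit on the light strand, at 922 and 991 TPM. In the gene table all 7 were higher than every nuclear subunit, and their median was 18.8 ± 1.85 (SD, n = 2) times the nuclear median. The level of mt-Nd4l depends on the quantification, since the other one listed it at 90.3 and 117 TPM, below every nuclear subunit there. The other 6 remained above every nuclear subunit in that quantification, the lowest being mt-Nd6 at 1629 and 1634 TPM.

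The median complex I subunit was lower than the median of each other respiratory complex. It stood at 0.547 ± 0.0132 (SD, n = 2) of the median of 38 nuclear subunits of complexes II to V. The complex II genes Sdha and Sdhc, of succinate dehydrogenase, stood at 330.3 and 340 TPM and at 279 and 274 TPM. The complex III genes Uqcrq and Uqcrc1 stood at 638 and 670 TPM and at 516 and 560 TPM. Cox6b1 and Cox4i1, of the ubiquitous complex IV, reached 1084 and 1244 TPM and 959 and 1041 TPM, and Atp5b and Atp5a1, of ATP synthase, 1824 and 1891 TPM and 644 and 667 TPM. Group medians over both libraries were 274 TPM for 4 genes of complex II, 401 TPM for 9 of complex III, 544 TPM for 10 of complex IV and 276 TPM for 15 of complex V, against 184 TPM for the 36 subunits of complex I. No test was run on these levels, since the genes are not replicates.

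Between the libraries no member differed by 2-fold, and most differed in the same direction. None of the 46 passed an exact two-sided binomial test at an adjusted p under 0.05 with at least 2-fold difference, where 6.81% of the 18883 genes tested did so, 2.75% with the higher value in replicate 2 and 4.05% with the higher value in replicate 1. Without the fold limit 24 members passed, all higher in replicate 2, where 26.6% of all genes passed and 14.8% did so with the higher value in replicate 2. The log2 ratio of replicate 2 to replicate 1, on counts scaled by TMM (edgeR's trimmed mean of M values), was above 0 for 43 of 46 members, with a median of 0.12, against 9322 of 18883 genes and a median of -0.00 over all genes tested. Of the 36 subunits 35 were above 0, with a median of 0.14. Scaling by total counts instead, which lowered the median of all genes to -0.07, left 33 members and 28 subunits above 0, with a median of 0.05, and 17 members passed without the fold limit, 16 of them higher in replicate 2. A change of library size moves all genes alike, so the distance of the members' median from that of all genes, 0.13, is the same by construction. Among the 11162 genes with at least as many counts as the lowest member, 357 were called with the fold limit. Without it, 2202 of them passed with the higher value in replicate 2 and 1357 with the higher value in replicate 1. The median log2 ratio of these 11162 genes was 0.02. The assembly factors had a median of 0.07, with 6 of 8 above 0 and none past counting error.

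The largest difference was that of Ndufa1, which stood at 195 and 219 TPM. Its log2 ratio was 0.22, with a counting interval (95%) of 0.14 to 0.31 and an adjusted p of 3.35e-06 by the exact binomial test. Ndufaf6 (0.22), Ndufc1 (0.21), Ndufb4 (0.21) and Ndufs8 (0.19) followed on the same log2 scale. The ratio of Ndufb4, whose counts are divided with a copy of the gene, was 0.09 in the other quantification and 0.01 as a difference of log2(TPM + 0.5). The interval of Ndufaf6 ran from -0.02 to 0.47 at its low counts, and it did not pass the test. Below 0 were Ndufaf5 at -0.12, Ndufb10 at -0.03 and Ndufaf4 at -0.01, and the interval of each included 0. Ndufa5 (0.01) and Ndufaf8 (0.02) were the next lowest.

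The size of these ratios was set beside that of other genes. Of all genes tested, 62.9% had a log2 ratio no wider than that of Ndufa1, and so had 80.3% of the 11162 genes with at least as many counts as the lowest member. The median size of the log2 ratio was 0.12 for the members, 0.15 for all genes and 0.10 for genes with such counts, so the members lay between the 2 backgrounds. By the deposited credibility intervals of TPM, the intervals of 14 members were apart between the libraries, with replicate 2 above replicate 1 in each, and those of 32 overlapped. The share of all genes with intervals apart was not computed, so it cannot be told whether this count is unusual.

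**Figure D2:**
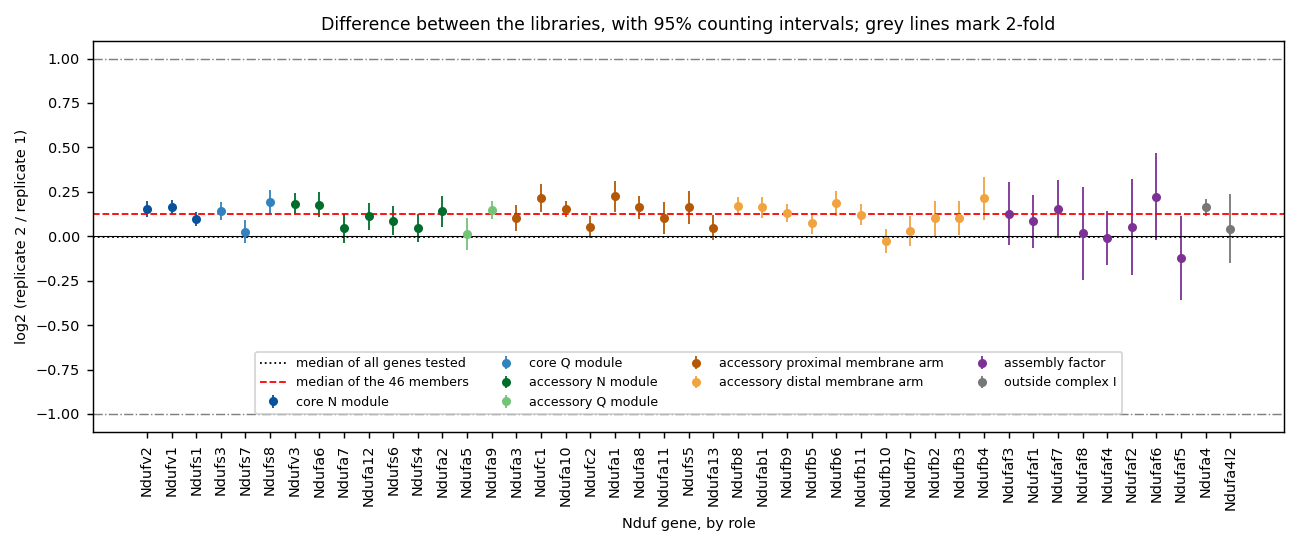
Log2 ratio of replicate 2 to replicate 1 for the Nduf genes reported here, with 95% counting intervals. The points lie between -0.12 and 0.22, well inside the grey 2-fold lines, and the red dashed median of 0.12 lies above the dotted median of all genes tested at -0.00.

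Other mitochondrial genes shifted to the same side. All 7 mitochondrially encoded complex I genes were above 0, with a median log2 ratio of 0.28, and all 7 passed the exact test without the fold limit. Of the 38 genes of complexes II to V, 32 were above 0, with a median of 0.13, and 27 passed without the fold limit with the higher value in replicate 2 and 4 with the higher value in replicate 1. The ATP synthase group had a median of 0.04, with 9 of 15 genes above 0. The 12 further assembly factors had a median of 0.06. Of the muscle and brown fat forms of complex IV subunits, Cox8b (981 and 1100 TPM) and Cox7a1 (533 and 579 TPM) were not called, whereas Cox6a2, the heart and muscle form, fell from 55.0 to 6.83 TPM and was called higher in replicate 1.

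Several marker lists moved with the libraries too. All 6 brown fat markers had a log2 ratio above 0, with a median of 0.27, and none was called. All 6 cortex markers were above 0, with a median of 0.13, whereas 4 of 6 chromaffin markers were below 0, with a median of -0.08. The kidney markers were called higher in replicate 2 in 10 of 10 cases and the liver markers higher in replicate 1 in 8 of 8. Of the skeletal muscle markers, 6 of 8 were called higher in replicate 1 and Myh4 higher in replicate 2, and of the red cell markers 3 of 7 were called higher in replicate 1. The part of these tissues in the difference of the Nduf genes was not tested.

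**Figure D3:**
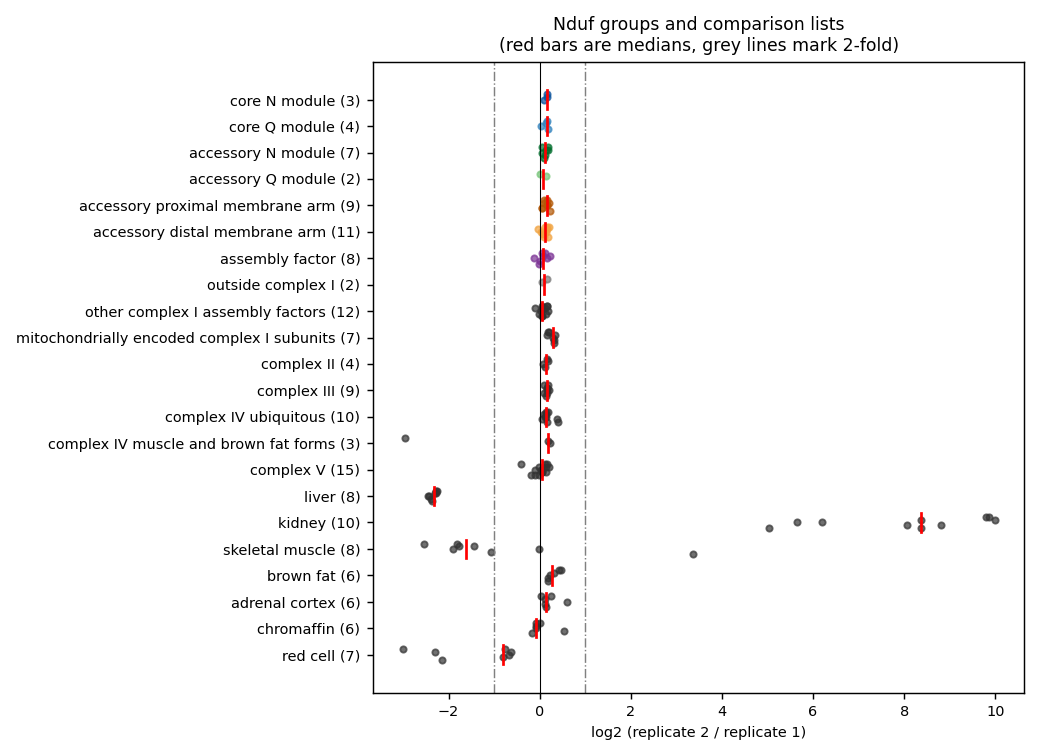
Log2 ratio of replicate 2 to replicate 1 for the genes of each Nduf role and each comparison list, with the number of genes in brackets and the median as a red bar. The Nduf groups lie close to 0, the liver genes lie around -2.33, and the kidney genes lie far to the right of the 2-fold line.

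The levels of several members depend on reads that also match another place in the genome. A processed pseudogene is a copy of a spliced transcript inserted elsewhere, and 13 of the 46 members had 17 annotated copies with at least 90% identity over at least 70% of the coding sequence. In 4 of these the copies took over 1% of the joint expected counts in both libraries. The case with the largest share was Ndufb4, on chromosome 16 from 37647170 to 37654453. Its copy Ndufb4c, on chromosome 15 from 73809507 to 73809896 in mm10, matched all 390 coding bases without a difference. The opening stretch of both, coding bases 1 to 120, is shown because no read within it can tell the genes apart.
Ndufb4: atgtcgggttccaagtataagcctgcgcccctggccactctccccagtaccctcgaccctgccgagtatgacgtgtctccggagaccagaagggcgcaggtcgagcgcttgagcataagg
Ndufb4c: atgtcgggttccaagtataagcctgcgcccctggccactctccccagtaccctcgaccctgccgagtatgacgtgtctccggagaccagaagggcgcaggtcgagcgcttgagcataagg

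The deposited quantifications gave different values to this pair. In the gene table Ndufb4c held 1694 and 1620 expected counts (173 and 178 TPM) and Ndufb4 held 1092 and 1129, so that 60.8% and 58.9% of the pair's counts went to the copy. In the other quantification Ndufb4c was listed at 0 and Ndufb4 stood at 346 and 356 TPM. Most of that, 314 and 327 TPM, was on the retained-intron transcript Ndufb4-202. The protein-coding Ndufb4-201 stood at 28.9 and 26.6 TPM there, against 25.8 and 32.8 TPM in the gene table's quantification. The part of the copy in the difference between the quantifications was not tested. Added together, the pair came to 224 and 229 TPM in the gene table, within the range of the other distal subunits. By the summed level of the gene, the place of Ndufb4 as the lowest subunit therefore holds for the gene table alone.

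A smaller share was divided for Ndufs5. Its copy BC002163, on chromosome 16 from 42955631 to 42955949, differed at 2 of 319 aligned bases, and both differences, in capitals, fall within coding bases 1 to 120.
Ndufs5: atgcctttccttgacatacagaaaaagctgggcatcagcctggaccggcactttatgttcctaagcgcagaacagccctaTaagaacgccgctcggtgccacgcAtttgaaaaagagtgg
BC002163: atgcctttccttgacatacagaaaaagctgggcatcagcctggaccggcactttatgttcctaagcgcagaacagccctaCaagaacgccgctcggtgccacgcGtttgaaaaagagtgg
BC002163 took 24.96% and 24.44% of the pair's expected counts in the gene table and was listed at 0 in the other quantification. The sum of the pair was 214 and 227 TPM.

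The copy of Ndufa12, Gm15920 on chromosome 5 from 130188395 to 130188796, differed at 2 of 402 aligned bases. One of these lies in coding bases 49 to 168 and is in capitals.
Ndufa12: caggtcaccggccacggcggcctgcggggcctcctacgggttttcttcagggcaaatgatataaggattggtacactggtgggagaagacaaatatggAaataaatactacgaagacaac
Gm15920: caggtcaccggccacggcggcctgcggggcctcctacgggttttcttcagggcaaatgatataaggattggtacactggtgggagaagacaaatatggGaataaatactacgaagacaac
Gm15920 took 12.3% and 12.5% of the joint counts in the gene table and 8.84% and 9.16% in the other quantification, so both gave it reads.

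For Ndufab1 the division went the other way. Its copy Gm4459, on chromosome 7 from 139659688 to 139660155, differed at 1 of 468 aligned bases, in capitals at the end of coding bases 18 to 137.
Ndufab1: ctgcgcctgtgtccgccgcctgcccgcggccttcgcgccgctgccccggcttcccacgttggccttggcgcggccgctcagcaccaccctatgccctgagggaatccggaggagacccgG
Gm4459: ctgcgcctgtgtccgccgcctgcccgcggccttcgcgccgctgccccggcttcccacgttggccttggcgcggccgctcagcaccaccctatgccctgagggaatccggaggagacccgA
The copies of Ndufab1 took 2.62% and 2.00% of the joint counts in the gene table and 23.3% and 21.2% in the other quantification. The sequences are those of the reference strain. CAST/EiJ bases at these positions were not used here, and the levels of these 4 members and their copies are uncertain to that extent.

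The levels were also compared between the quantifications. Across the 36 subunits the log2 TPM of the quantifications had a Pearson r of 0.677 and a Spearman rho of 0.774, and an r of 0.807 and a rho of 0.822 without Ndufb4, as a description across genes of the same libraries. After both were brought to the summed TPM of the detected protein-coding genes, Ndufb4 was 2.06 higher on the log2 scale in the other quantification, Ndufs5 0.63, Ndufaf3 0.62 and Ndufb8 0.49. In the opposite direction Ndufaf4 was at -0.69, Ndufa3 at -0.67, Ndufab1 at -0.65 and Ndufa1 at -0.62. The assembly factors remained under all subunits there, with Ndufaf3 at 57.4 TPM and the lowest subunit, Ndufa13, at 143 TPM.

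**Figure D4:**
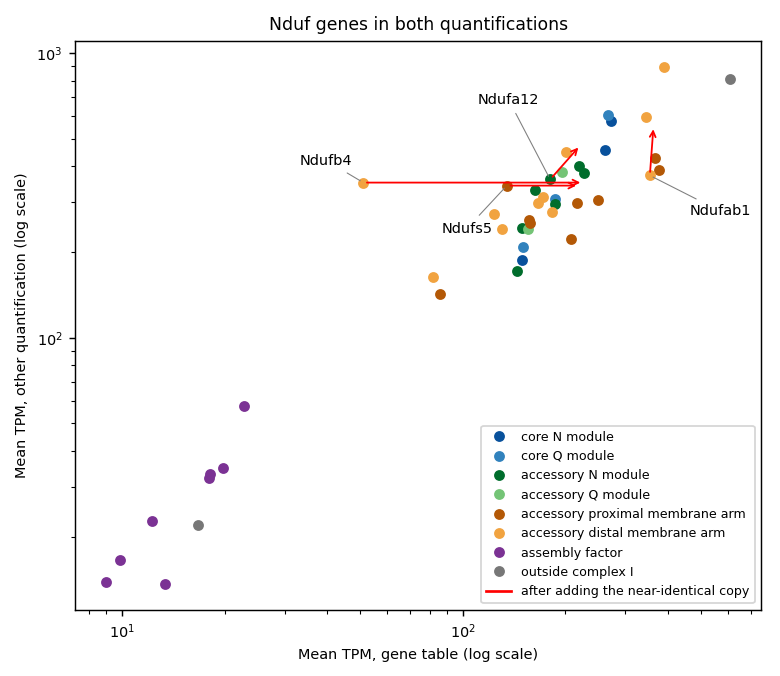
Mean TPM of the Nduf genes in the gene table (horizontal, log scale) and in the other quantification (vertical, log scale), colored by role, with red arrows to the value after the near-identical copy is added to its gene. Ndufb4 lies to the left of the other subunits at 51.0 TPM and moves to 227 TPM once Ndufb4c is added.

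Ndufv3 is known to make a long and a short protein by skipping an exon. The gene lies on chromosome 17 from 31520115 to 31531331 in mm10. Ndufv3-201 has 1407 coding bases and Ndufv3-202 has 315, the difference being a stretch of 1092 bases that only the long form holds. The bases around the junction are shown, with the shared 30 bases in lower case and the 30 bases that follow in each form in capitals.
Ndufv3-201: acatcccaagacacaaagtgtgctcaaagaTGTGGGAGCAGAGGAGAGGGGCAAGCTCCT
Ndufv3-202: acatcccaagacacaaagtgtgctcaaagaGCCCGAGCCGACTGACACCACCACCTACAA
The short form held 76.7% of the gene's TPM in replicate 1 and 74.6% in replicate 2, and the long form 21.98% and 23.7%. In the other quantification the short form held 78.8% and 76.5% and the long form 19.1% and 21.1%. The short form was thus the higher one in both libraries and by both methods. At 168 and 174 TPM against 48.2 and 55.0 TPM in the gene table, the forms did not overlap.

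The 46 members had 226 annotated transcripts, and 6 members had a single one. Protein-coding transcripts held a median of 88.5% and 86.5% of a member's TPM in the gene table's quantification and 84.1% and 85.5% in the other. Of the 40 members with several transcripts, 26 had the same leading transcript in both quantifications and 14 did not. The 6 members with a single transcript, and Ndufv2, Ndufc2, Ndufb6, Ndufs8 and Ndufs5, have only protein-coding transcripts. Their share is 100% by annotation and enters these medians. In 18 members, these among them, the protein-coding share was above 90% in both quantifications, and in 7 it was below 50% in both.

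Those 7 members were Ndufa3, Ndufc1, Ndufab1, Ndufa10, Ndufa5, Ndufs4 and Ndufaf4. These are shares of TPM, which corrects for length, so a short transcript weighs more than it does in counts. Of the 8722 and 8656 expected counts of Ndufa10, the protein-coding Ndufa10-201 of 2020 bases held 4578 and 5066. In TPM it held only 29.0% and 33.2%. A low share here therefore does not mean that most reads of a gene were from other transcripts. Of Ndufa3, 9.0% and 10.0% of the TPM in the gene table's quantification was protein-coding, and Ndufa3-204, a transcript of 343 bases annotated for nonsense-mediated decay, led with 90.1% and 89.2%. In the other quantification Ndufa3-204 led with 46.3% and 45.0%. For Ndufs4, protein-coding transcripts held 13.6% and 13.7%, and 12.8% and 13.2% in the other quantification, while Ndufs4-204, also annotated for decay, held 48.8% and 46.6%. Of Ndufc1, the retained-intron transcript Ndufc1-203 led in the gene table's quantification with 58.8% and 61.9%, but Ndufc1-202, a processed transcript, held 97.3% and 97.0% in the other, where Ndufc1-203 was listed at 0. For Ndufab1 the retained-intron Ndufab1-205 led in both, with 35.2% and 35.5% against 81.8% and 82.7%. Ndufa5-204, a processed transcript, led Ndufa5 with 58.7% and 62.5% against 52.9% and 67.9%.

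Other members changed their leading transcript with the method. Ndufa4-204 held 79.9% and 78.9% of Ndufa4 in the gene table's quantification, while Ndufa4-201 led with 51.7% and 49.8% in the other, both protein-coding. Ndufb8-201 held 72.4% and 70.9% of Ndufb8, and Ndufb8-204 led with 44.4% and 43.6% in the other, again both protein-coding. For Ndufs3 the protein-coding Ndufs3-201 led with 54.0% and 52.9%, and the processed transcript Ndufs3-204 led in the other with 46.5% and 47.2%. The protein-coding share of a member differed between the libraries by a median of 0.819 percentage points and between the quantifications by a median of 3.32 points. Members with only protein-coding transcripts cannot differ and enter these medians, and single members differed far more. Ndufa7 went from 84.2% and 81.1% in the gene table's quantification to 0.00207% and 3.83% in the other. Ndufb2 went from 83.8% and 85.2% to 27.7% and 25.9%, and Ndufaf8 rose from 43.1% and 34.0% to 100% in both libraries.

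**Figure D5:**
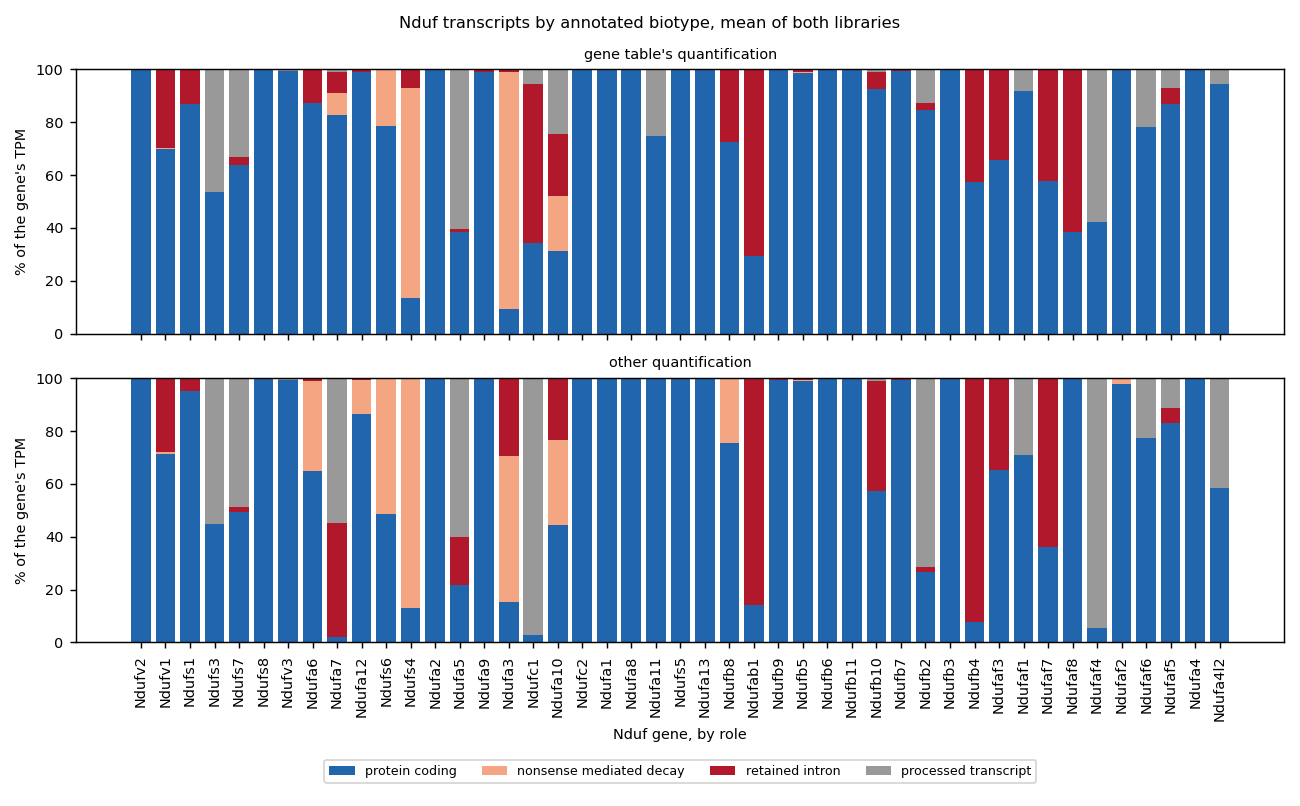
Percent of an Nduf gene's TPM in transcripts annotated as protein coding, nonsense mediated decay, retained intron or processed transcript, as the mean of both libraries, for the gene table's quantification (top) and the other one (bottom). Ndufa3, Ndufs4, Ndufab1 and Ndufc1 have under 50% of their bar in blue in both panels, and Ndufa7 and Ndufb2 change color between them.

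Promoter sequences were at hand for 40 of the 46 members, as 42 windows of 300 bases from RefSeq (GRCm38.p6) that run from 250 bases before to 50 bases after a start. Motifs of 3 factors known for nuclear genes of respiration were searched on both strands. The NRF1 core, GCGCANGCG, lay in 11 of the 42 windows (26.2%), against 6.25% of all 32851 promoters and 12.8% of the 12846 promoters of protein-coding genes detected in both libraries. The windows count a site of Ndufa5 in each of its overlapping windows, and by gene 10 of 40 members (25%) held the core, against 7.03% of all genes and 15.1% of the detected protein-coding genes. The YY1 core, AAGATGGCG, lay in 6 windows (14.3%), against 1.40% and 2.85%. The ERR motif, TNAAGGTCA, lay in 1 window (2.38%), that of Ndufb4, against 1.28% and 0.740%. The YY1 matches were in Ndufs4, Ndufs6, Ndufs7, Ndufa9, Ndufc1 and Ndufaf8, and each began between base 261 and base 286 of its window, that is just after the annotated start. The YY1 core holds the letters ATG, and whether a match overlaps the start of the coding sequence was not tested. Ndufs6, on chromosome 13, is printed as the window with both an NRF1 match on the minus strand of the gene (first capitals, from base 236) and a YY1 match (second capitals, from base 284). The window is chr13:73328433-73328732 on the minus strand of GRCm38.p6.
Ndufs6: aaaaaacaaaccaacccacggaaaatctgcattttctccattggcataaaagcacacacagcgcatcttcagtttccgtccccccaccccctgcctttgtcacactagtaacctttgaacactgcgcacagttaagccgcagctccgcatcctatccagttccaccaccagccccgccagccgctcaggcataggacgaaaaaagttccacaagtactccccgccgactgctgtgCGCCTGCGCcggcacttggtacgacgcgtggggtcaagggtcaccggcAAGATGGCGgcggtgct
The motifs do not overlap in it. A match is a description of letters in the window, and no binding was measured here. Carriers of a YY1 match ranged from 17.9 TPM (Ndufaf8) to 367 TPM (Ndufc1) by mean.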

How the data were processed

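Each library came with 3 tables from a pair of quantifications. A gene table and its transcript table, under RSEM's column names, hold expected counts, TPM with the bounds of its credibility interval (a signal), and each transcript's percent of its gene, as deposited by the authors. A further transcript table, under kallisto's column names, holds estimated counts and TPM, likewise as deposited. Per the labels and the notes deposited with the files, reads were placed on mm10 with annotation M21. Tool versions, strand use in counting and treatment of CAST/EiJ variants were not given in the sources used here. Genes that overlap or lie antisense to a member are therefore uncertain. Values of the other quantification were summed per gene.

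All 55536 gene IDs matched the annotation. Features with a bare number as ID, 1.96e-05% and 1.8e-05% of the counts, stayed out. The members and lists were chosen with earlier results of these data known. The symbols Coa1, Atp5pb and Atp5md of those lists match no symbol in the annotation. Genes that the annotation may carry under other symbols for them are not in the list values.

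Expected counts were rounded and scaled by TMM (edgeR 4.0.16, R 4.3.3) with spike-ins in the library size. With 1 group the edgeR quasi-likelihood test has no contrast, and the smallest exact p that 2 libraries allow is 0.5, so none was run. An exact two-sided binomial test compared the libraries for each gene with a summed count of at least 20, adjusted by Benjamini-Hochberg over all genes, with calls at an adjusted p under 0.05 and at least 2-fold. Log2 ratios used a prior count of 0.5 and exact (Clopper-Pearson) intervals, which cover counting error only. The comparison of the libraries was tested on simulated counts with known changes and no variation beyond counting error. The other steps were not tested in this way. Of the named genes, 1 is not reported here singly and enters only counts, medians and sums. Named members were the other core subunits, the highest and lowest of each role, those with the widest ratios between libraries or quantifications, and those whose leading transcript changed or was not protein-coding. Ndufb9, Ndufaf2 and the rest of the members outside that rule are named to account for every gene. Coding sequences were compared with all annotated transcripts of other symbols by blastn 2.17.0, at 90% identity or more over at least 70% of the length. All the copies found are annotated as processed pseudogenes. Other steps used Python 3.11.15, numpy 2.4.6, pandas 2.3.3, scipy 1.17.1, biopython 1.88 and matplotlib 3.10.9. Alternatives were other scalings (total counts, DESeq2 1.42.0 size factors, spike-in sums), count filters, fold limits, TPM scales and the other quantification.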

Additional observations from a re-analysis of the deposited data

How the results depend on the processing

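No member was called under total counts, DESeq2 size factors, spike-in sums, no filter, a summed count of at least 100, the other quantification or a 1.5-fold limit, and 24 were called without a fold limit. The median log2 ratio of the members, 0.12, was 0.053 with total counts and 0.14 in the other quantification, and 0.14 over the subunits alone, an alternative chosen after seeing the data. Total counts moved the median of all genes by -0.07, and with it every member, so that 33 of 46 lay above 0. Over 10 settings the log2 ratios of single members ran from -0.28 to 0.24, and 13 members took both signs. All 46 members were detected in every setting at 0.5 or 1 TPM, and 44 at 10 TPM. The median TPM of the members, 164.69, was 296.71 in the other quantification, 493.76 on a scale of nuclear protein-coding genes, 163.88 to 164.77 with 1 library left out, and 177 with copies counted with their parents, also chosen after seeing the data. The distal accessory median as a share of the core median, 0.669, was 0.776 in the other quantification, 0.70 with copies added, 0.649 to 0.688 with 1 library left out and 1.34 by sums, where the larger number of distal genes enters. The causes of the other changes were not tested. No paired analysis was possible because the series has 1 group. At these depths a count of 0 allows up to 3 counts, and 2 libraries limit every SD.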

Other observations

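Some genes with an Nduf symbol fell outside the rule because no transcript of theirs is annotated as protein-coding. Ndufb1-ps, on chromosome 12 from 101968090 to 101977068 in mm10, is annotated there as a bidirectional promoter lncRNA and stood at 70.04 TPM in replicate 1 and 76.7 TPM in replicate 2, with 1052 and 1054 expected counts. RefSeq lists a protein-coding gene there, the distal subunit Ndufb1, with Ndufb1-ps among its older names, and its level is in none of the values given for the distal arm. The level of Ndufb1-ps was between those of Ndufb4 and Ndufb3 in the gene table. Ndufb4c had counts in the gene table alone, Ndufs6b had 4.38 and 0 counts, Ndufab1-ps 2.24 and 0 counts, and Ndufa11b was listed at 0 in both libraries and both quantifications.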
